A study of Mus musculus with 76 samples.

Results

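The 10 genes described here write, erase or guard DNA methylation: Dnmt1, Uhrf1, Dnmt3a, Dnmt3b, Dnmt3l, Tet1, Tet2, Tet3, Dppa3 and Zfp57. They were chosen by symbol from the 48321 genes listed in each of 4 tables of raw counts, and all 10 were found. The libraries were made from polyadenylated RNA of single mouse oocytes, single 2-cell embryos, single blastocysts and extraembryonic ectoderm (ExE) of embryonic day 6.5, the trophoblast tissue beside the embryo proper. WT samples were compared with samples labelled Ezhip matKO, in which the maternal supply of Ezhip, an inhibitor of the Polycomb complex PRC2, had been removed. Among the 76 libraries, WT had 3 oocytes, 11 2-cell embryos (5 females and 6 males), 14 blastocysts (6 and 8) and 10 ExE samples (6 and 4), and matKO had 4 oocytes, 12 2-cell embryos (6 and 6), 14 blastocysts (7 and 7) and 8 ExE samples (5 and 3). The labels do not name the strain, the father's genotype, the deleted part of Ezhip or the mothers' age. The study asked how removing Ezhip from the egg affects early development.

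DNA methylation is placed on the cytosine of CpG dinucleotides. Dnmt1 copies it onto the new strand after replication, and Uhrf1 recruits Dnmt1 to DNA methylated on 1 strand. Dnmt3a and Dnmt3b methylate unmodified DNA, and Dnmt3l, which has no catalytic activity, stimulates them and is needed for maternal imprints in the growing oocyte. Tet1, Tet2 and Tet3 oxidise methylcytosine on the way to its removal, and Tet3 is the oxidase known for its action in the zygote. Dppa3 (also called Stella) protects maternal chromosomes from this oxidation and keeps Uhrf1 out of the oocyte nucleus, and Zfp57 is a zinc finger protein that keeps methylation at imprinting control regions while most of the genome loses it.

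In mm10, Dnmt1 spans 20907206 to 20959888 on the minus strand of chromosome 9 and Uhrf1 spans 56303321 to 56323486 on the plus strand of chromosome 17. Dnmt3a spans 3806007 to 3914443 on the plus strand of chromosome 12, Dnmt3b spans 153649450 to 153687730 on the plus strand of chromosome 2, and Dnmt3l spans 78041947 to 78063622 on the plus strand of chromosome 10. Tet1 lies on the minus strand of chromosome 10 from 62804570 to 62899118, Tet2 on the minus strand of chromosome 3 from 133463679 to 133545139, and Tet3 on the minus strand of chromosome 6 from 83362373 to 83459084. Dppa3 covers 122626410 to 122630272 on the plus strand of chromosome 6 and Zfp57 covers 37001163 to 37010635 on the plus strand of chromosome 17. The tables list a gene on the opposite strand that overlaps Dnmt3a (Dnmt3aos), Dnmt3b (Dnmt3bos), Dnmt3l (Aire) and Tet2 (Gm42567), and 1 of the 3 genes that overlap Tet3 is on the opposite strand too. No label names the strand setting of the counting. Reads from a stretch that one of these 5 genes shares with a partner therefore cannot be told apart. Dnmt1 (Mir7081) and Tet1 (Gm26479) each overlap a gene on the same strand. Overlap was read from whole gene spans, and the share of exons in it was not measured. Counts per gene do not separate transcript forms, such as those that start at different first exons of Dnmt1.

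Because these genes act on CpG, the CpG content of the sequence before their own start sites was read from RefSeq (GRCm38.p6, the build of mm10). Of the 10 genes, 9 had an entry, with 18 windows in all, of which 9 hold no annotated exon; those printed are of that kind. Dppa3 had none. The 250 bases before a start are shown for 3 genes that were high in oocytes and fell by the 2-cell stage (Dnmt1, Uhrf1, Zfp57) and 2 that were highest later (Dnmt3b in ExE, Tet2 in blastocysts). Capitals mark CpG, which reads the same on both strands.
Dnmt1, chr9:20959889-20960138, minus strand: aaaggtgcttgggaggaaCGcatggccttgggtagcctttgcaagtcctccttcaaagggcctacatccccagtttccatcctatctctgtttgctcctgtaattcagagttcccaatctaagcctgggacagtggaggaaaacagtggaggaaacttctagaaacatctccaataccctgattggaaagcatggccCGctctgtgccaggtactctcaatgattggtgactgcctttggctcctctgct
Uhrf1, chr17:56304063-56304312, plus strand: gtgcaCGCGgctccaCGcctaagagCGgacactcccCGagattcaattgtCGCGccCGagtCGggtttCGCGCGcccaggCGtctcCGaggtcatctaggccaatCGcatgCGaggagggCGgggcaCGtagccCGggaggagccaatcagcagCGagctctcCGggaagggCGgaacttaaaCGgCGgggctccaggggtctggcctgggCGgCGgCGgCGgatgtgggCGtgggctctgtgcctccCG
Zfp57, chr17:37000913-37001162, plus strand: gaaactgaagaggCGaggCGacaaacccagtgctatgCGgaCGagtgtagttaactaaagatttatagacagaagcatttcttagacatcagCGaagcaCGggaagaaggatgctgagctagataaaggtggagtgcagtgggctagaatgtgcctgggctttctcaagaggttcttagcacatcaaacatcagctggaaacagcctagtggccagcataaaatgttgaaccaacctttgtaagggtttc
Dnmt3b, chr2:153649199-153649448, plus strand: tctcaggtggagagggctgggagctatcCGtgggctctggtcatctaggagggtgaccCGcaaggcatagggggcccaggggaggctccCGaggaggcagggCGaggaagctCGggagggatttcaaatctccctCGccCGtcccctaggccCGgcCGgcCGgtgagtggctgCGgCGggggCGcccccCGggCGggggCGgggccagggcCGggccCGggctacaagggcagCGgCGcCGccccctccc
Tet2, chr3:133544391-133544640, minus strand: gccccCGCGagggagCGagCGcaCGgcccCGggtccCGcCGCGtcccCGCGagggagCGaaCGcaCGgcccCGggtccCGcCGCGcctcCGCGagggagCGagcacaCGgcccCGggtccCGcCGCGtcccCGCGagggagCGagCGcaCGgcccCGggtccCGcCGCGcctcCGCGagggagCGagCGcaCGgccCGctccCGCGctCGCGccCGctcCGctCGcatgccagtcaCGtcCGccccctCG

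The median over all 32851 windows of this length was 6 CpG. The window of Dnmt1 held 2, a number reached by 81.2% of all windows, that of Zfp57 held 6 (50.4% of windows hold as many), that of Dnmt3b 21 (16.3%), that of Uhrf1 30 (5.94%) and that of Tet2 51 (0.067%). The other windows of these genes held 7 and 26 CpG for Dnmt1, 10 for Uhrf1, and 3 and 7 for Zfp57, so the number depends on the start site. Windows without an annotated exon also exist for Dnmt3a and Dnmt3l and are not printed. That of Dnmt3a, highest in oocytes, held 38 CpG, and those of Dnmt3l, highest in blastocysts, held 4 and 3. A link between CpG number and stage was not tested. Methylation itself was not measured in these libraries.

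Total counts ran from 1.05 M to 32 M per library (M, mega), and 3 counts, the limit that a count of 0 allows, correspond to between 0.103 and 2.07 on the counts-per-million (CPM) scale. Levels are given as CPM after TMM scaling over all 76 libraries, as mean ± SD between libraries. Ezhip, listed as AU022751, had a mean of 1104 CPM ± 250.1 over the 3 WT oocytes and 0.241 ± 0.164 over the 4 matKO oocytes, and of 119 ± 68.6 (n = 11) against 2.53 ± 4.04 (n = 12) over the 2-cell embryos, where every matKO embryo (up to 13.8) lay below every WT embryo (from 30.3). Over blastocysts of both sexes it was lower in matKO too (6.33 ± 12.9 against 0.426 ± 0.617, n = 14 each, edgeR's adjusted p 0.045). Within males it was called (10.1 ± 16.3 against 0.115 ± 0.196, edgeR's adjusted p 0.004). Within females it was not (1.24 ± 1.71 against 0.737 ± 0.75, edgeR's adjusted p 0.91). The sexes also differed within matKO. Ezhip had a count of 0 in 4 of 6 male and 0 of 6 female matKO 2-cell embryos. Among matKO blastocysts this held for 5 of 7 males and 2 of 7 females. The labels do not say which copies of Ezhip the embryos of each sex carried, so the sexes may differ in more than the maternal supply. ExE of both genotypes held Ezhip at near 0. The library identifiers carry prefixes. All oocytes and 2-cell embryos have D707T, blastocysts have D405T (10 WT, 6 matKO) or D707T (4 WT, 8 matKO), and in ExE all WT have D1042C and all matKO have D707T, so that in ExE the effects of the 2 cannot be told apart. Among matKO 2-cell embryos, the 7 libraries numbered 42 to 48 stood apart from the 5 numbered 37 to 41 on the first principal component (44.6 to 103.3 against -70.9 to -22.6; WT -138.8 to 14.1). For some of the genes described here, results are therefore also given for each of these sets. The labels name no litter or donor, so p-values measure only the spread between single libraries, part of which may be technical.

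Per kilobase of annotated exon, which allows genes to be compared, Dppa3 was the highest of the 10 genes in every WT oocyte, 2-cell embryo and blastocyst, with means of 1812, 1770.4 and 1623 CPM per kb. In WT oocytes Dnmt1 followed at 242 ± 35.5 CPM per kb and Zfp57 at 146 ± 13.2 (SD, n = 3), then Dnmt3l, Uhrf1, Tet3, Dnmt3a, Dnmt3b, Tet1 and Tet2, and each gene lay above the next in all 3 oocytes. In WT blastocysts Dnmt3l came second at 103 ± 20.1 CPM per kb and Dnmt3b next at 31.2 ± 11.6 (SD, n = 14). In WT ExE Dnmt3b was the highest, at 134 ± 42.5 CPM per kb, above Dnmt1 (37.4 ± 12.9) in 10 of 10 libraries, and Tet3 (0.635 CPM per kb), Dppa3 (0.601), Zfp57 (0.396) and Tet2 (0.231) came last, each above the next in only 4 or 5 of 10 libraries.

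**Figure D1:**
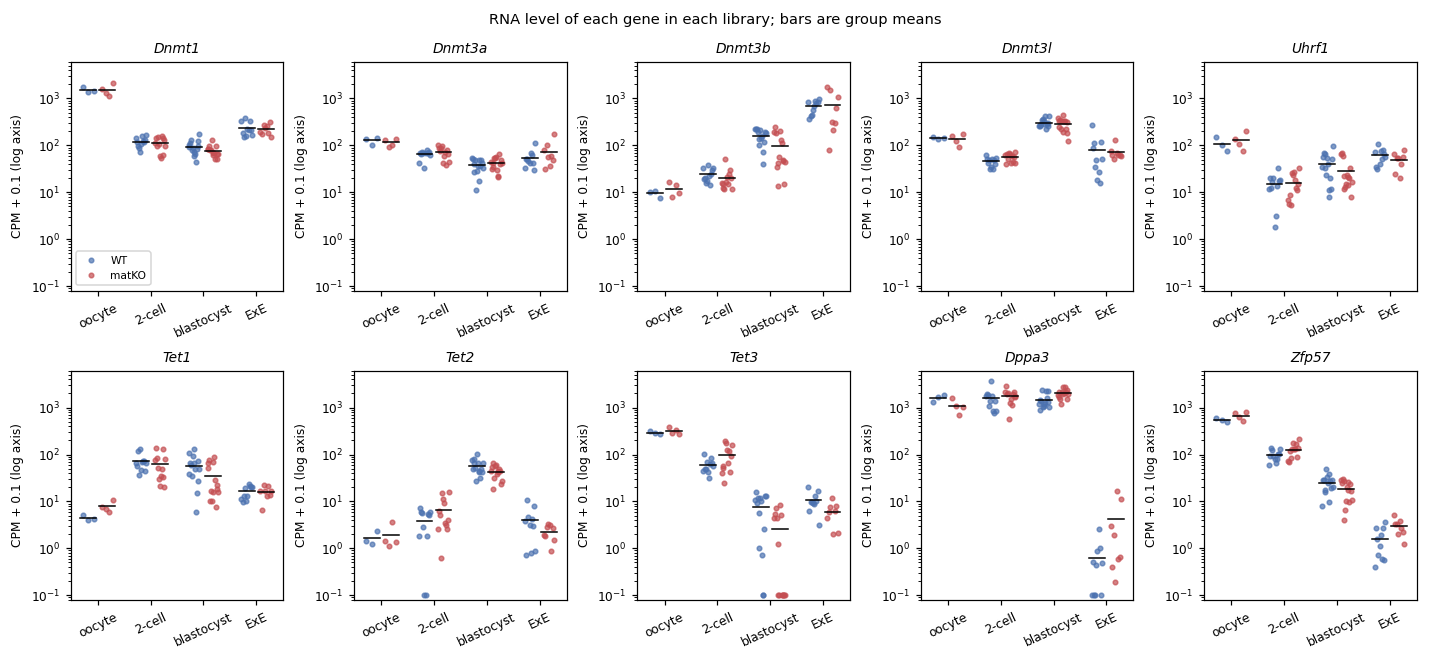
Levels of the 10 genes in every library, as CPM plus 0.1 on a log axis, by stage and genotype (blue WT, red matKO); each point is 1 library and the bar is the group mean. Dnmt1, Tet3 and Zfp57 were highest in oocytes, Tet2 and Dnmt3l in blastocysts and Dnmt3b in ExE, and Dppa3 went from at least 584 CPM in every earlier library to at most 16.5 CPM in ExE.

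Steps between stages were tested in 1 fit over all libraries (edgeR's quasi-likelihood test with Benjamini-Hochberg adjustment over 20943 genes). A gene's level is its share of the polyadenylated RNA of a library, and in a whole embryo or a piece of tissue fewer cells of a type and less RNA per cell cannot be told apart. From oocyte to 2-cell embryo, 1 of the 10 genes rose and 6 fell in WT, against 22.1% and 21.7% of all genes tested, and 2 rose and 6 fell in matKO, against 23.9% and 24.4%. From 2-cell embryo to blastocyst, 4 rose and 3 fell in WT (28.2% and 41.8% of all genes) and 4 rose and 5 fell in matKO (29% and 43.6%). From blastocyst to ExE, 3 rose and 5 fell in both genotypes, against 31.8% and 23.1% of all genes in WT and 30.3% and 18.7% in matKO. Where stages are said below not to overlap for a gene, the share of all genes for which this holds was not counted. Such a lack of overlap therefore does not set these genes apart from others. The sizes of the steps move with the scaling; other reference libraries for TMM, and the alternatives for differences between steps, were chosen after seeing the data. With RLE size factors in place of TMM the median of all genes at the first step in WT moved from 0.00 to -0.26 on the log2 scale, with 3908 genes higher and 5747 lower in place of 4634 and 4538, and with the TMM reference taken from a blastocyst it was -0.16. At the second step RLE moved it from -0.50 to -0.69 in WT and at the third from 0.11 to 0.28.

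**Figure D2:**
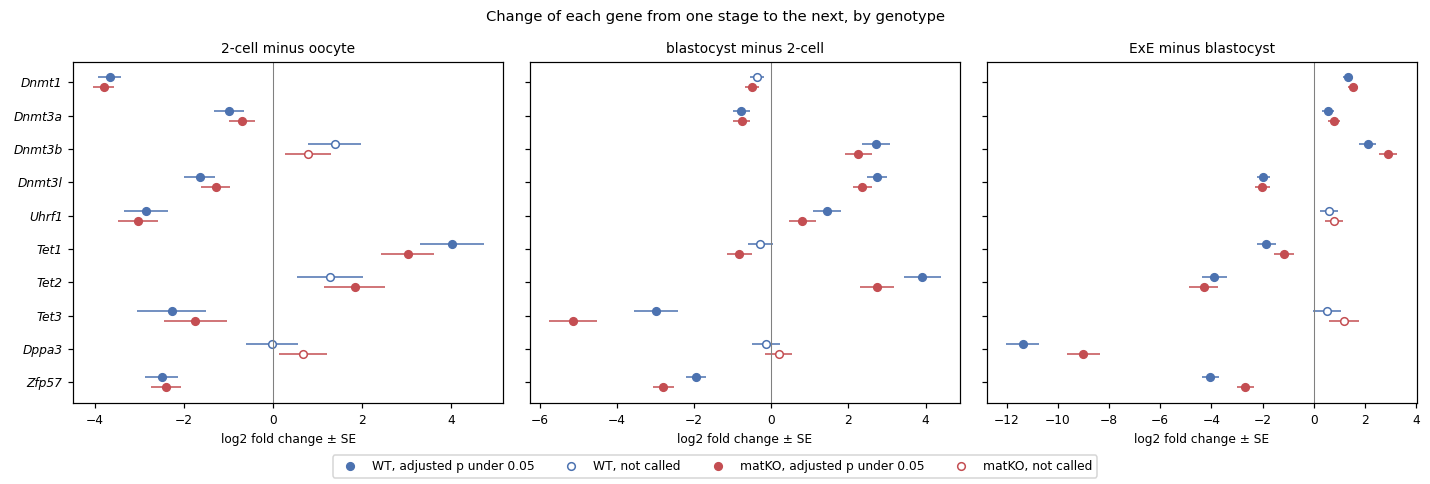
Change of each gene from 1 stage to the next, as log2 fold change ± SE from the joint fit, in WT and matKO; filled points passed an adjusted p of 0.05. Within each step the lowest values were those of Dnmt1 from oocyte to 2-cell embryo (-3.67 in WT, -3.81 in matKO), Tet3 from 2-cell embryo to blastocyst (-2.99, -5.14) and Dppa3 from blastocyst to ExE (-11.38, -9.01).

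Dnmt1, the maintenance enzyme, was an oocyte transcript. The WT oocytes held 1781, 1356 and 1447 CPM and the matKO oocytes 1618, 1332, 1115 and 2111 CPM. The 2-cell embryos were all far lower, with a lowest, median and highest value of 73.8, 119 and 166 CPM in WT (n = 11) and 53.6, 109 and 157 in matKO (n = 12). The stages did not overlap, and the fall was 12.7-fold in WT (log2 -3.67 ± 0.26 SE, adjusted p 4.9e-20) and 14.1-fold in matKO (-3.81 ± 0.24, adjusted p 4.3e-23). Blastocysts held a median of 88 CPM in WT (44 to 174, n = 14) and 74.4 in matKO (50.1 to 128, n = 14), overlapping the 2-cell embryos. That second step was called in matKO (-0.51, adjusted p 0.0082) but not in WT (-0.36, adjusted p 0.073). Both calls moved with the setting. The WT step was called with RLE size factors (-0.55, adjusted p 0.0031), DESeq2 (-0.56, adjusted p 0.0022), the TMM reference from a blastocyst (-0.49, adjusted p 0.0089) or an oocyte (-0.71, adjusted p 0.0005), and within D707T (-0.65, adjusted p 0.039). The matKO step was not called with the TMM reference from ExE (-0.27, adjusted p 0.15). The difference between the genotypes in this step was -0.15 ± 0.25 (adjusted p 0.84). In ExE Dnmt1 rose again, to a median of 213 CPM in WT (154 to 376, n = 10) and 217 in matKO (154 to 312, n = 8), a rise of 2.51-fold in WT (adjusted p 4.2e-09) and 2.88-fold in matKO (adjusted p 3.9e-10).

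Uhrf1, the partner that brings Dnmt1 to the replication fork, followed the same course over the first step at a lower level. It stood at 150.3, 101 and 77.2 CPM in the WT oocytes and at 137, 107, 74.8 and 206 CPM in the matKO oocytes. It then fell 7.26-fold in WT (log2 -2.86 ± 0.49, adjusted p 2e-06) and 8.25-fold in matKO (-3.04 ± 0.45, adjusted p 3.9e-08), to medians of 16.5 CPM (1.74 to 32.1, n = 11) and 13.7 CPM (5.32 to 33, n = 12), with no overlap between the stages. Blastocysts spread widely, from 7.94 to 96.9 CPM in WT (median 37.1) and from 7.97 to 68 in matKO (median 20.5). The rise to the blastocyst was 2.71-fold in WT (adjusted p 0.00033) and 1.76-fold in matKO (adjusted p 0.03), but within prefix D707T alone it was 0.27 on the log2 scale in WT (adjusted p 0.63) and 0.13 in matKO (adjusted p 0.77), and the matKO rise was not called with RLE size factors (0.40, adjusted p 0.29), DESeq2 (0.40, adjusted p 0.30) or the TMM reference from a blastocyst (0.66, adjusted p 0.072) or an oocyte (0.45, adjusted p 0.24). WT blastocysts under D405T held 49.9 CPM ± 24.5 (SD, n = 10) and those under D707T 18.2 ± 11.1 (SD, n = 4). ExE held a median of 61.1 CPM in WT and 53.3 in matKO, a step that was not called (0.59, adjusted p 0.15; 0.79, adjusted p 0.07) with TMM over all libraries but was with RLE size factors and with DESeq2 (0.81, adjusted p 0.044, and 1.05, adjusted p 0.014, with each) and within D707T in matKO (1.48, adjusted p 0.0028).

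Of the de novo enzymes, Dnmt3a was highest in oocytes and Dnmt3b was highest in ExE. Dnmt3a stood at 139, 102 and 144 CPM in the WT oocytes and at 129.6, 94.3, 104 and 135 CPM in the matKO oocytes. Its medians were 67.9 CPM (33 to 79.6) in WT and 74.7 (37.5 to 103) in matKO 2-cell embryos, 38.4 (11 to 53.5) and 42.7 (21.6 to 66.2) in blastocysts, and 48.4 (30.1 to 115) and 57.4 (31.7 to 174) in ExE. The first fall, 2-fold in WT (log2 -1.0 ± 0.34, adjusted p 0.012) and 1.63-fold in matKO (-0.70 ± 0.30, adjusted p 0.049), kept its size without single oocytes but not always its call. In WT it was -0.94 without oocyte 1 (adjusted p 0.056) and -0.91 without oocyte 3 (adjusted p 0.067), and in matKO it was -0.79 to -0.62 without any 1 of the 4 oocytes (adjusted p 0.05 to 0.14, none called). In matKO it was also not called with the TMM reference from an oocyte (-0.67) or with sex as a term (-0.70; adjusted p 0.059 with each). The second fall was -0.78 ± 0.22 in WT (adjusted p 0.0012) and -0.76 ± 0.22 in matKO (adjusted p 0.0014), and within D707T it was -0.50 (adjusted p 0.15) and -0.49 (adjusted p 0.058). The rise to ExE was 1.46-fold in WT (adjusted p 0.035; 0.061 with the TMM reference from a blastocyst, 0.15 without the filter on low counts) and 1.74-fold in matKO (adjusted p 0.0039; 0.083 within D707T).

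Dnmt3b had its lowest mean in oocytes and its highest in ExE, and like Dnmt3a it rose from blastocyst to ExE. The oocytes held 9.84, 10.7 and 7.61 CPM in WT and 16.2, 7.8, 13.9 and 9.79 in matKO. The 2-cell embryos held medians of 21.7 CPM in WT (14.5 to 38.1) and 16 in matKO (11.7 to 52.2), a difference from oocytes that was not called (1.38 ± 0.60, adjusted p 0.053; 0.78 ± 0.51, adjusted p 0.2), although in WT it was with edgeR's newer quasi-likelihood fit (1.41, adjusted p 0.043) and within D707T (1.38, adjusted p 0.033). Blastocysts held medians of 173 CPM in WT (40.3 to 228) and 52.3 in matKO (13.5 to 245), 6.55-fold (adjusted p 9.2e-10) and 4.75-fold (adjusted p 3.7e-08) above 2-cell embryos. ExE held 741 CPM in WT (362 to 955) and 473 in matKO (79.8 to 1726), a further 4.28-fold (adjusted p 2.6e-07) and 7.48-fold (adjusted p 2e-10). In WT none of the 4 stages overlapped with another, from 7.61 to 10.7 CPM in oocytes up to 362 to 955 in ExE, whereas in matKO neighbouring stages overlapped.

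Dnmt3l, the cofactor of both, had its peak in blastocysts. It stood at 153, 134 and 141 CPM in the WT oocytes and at 159, 126, 92.2 and 173 in the matKO oocytes. It fell 3.14-fold in WT (adjusted p 6.9e-05) and 2.45-fold in matKO (adjusted p 0.00048), to medians of 48.2 CPM (31.7 to 63.7) and 58.6 CPM (40.3 to 71.4). In blastocysts it rose 6.74-fold in WT (adjusted p 1.4e-15) and 5.12-fold in matKO (adjusted p 7e-14), to 288 CPM (221 to 418) and 317 CPM (123 to 437). Every blastocyst lay above every 2-cell embryo. In ExE it fell 3.91-fold (adjusted p 6.6e-10) and 4.03-fold (adjusted p 6.9e-09), to 49 CPM (15.8 to 269) and 63 CPM (50.4 to 128).

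In WT each oxidase had its highest mean at another stage, Tet3 in oocytes, Tet1 in 2-cell embryos and Tet2 in blastocysts. Tet3 was the oocyte form, at 316, 283 and 269.7 CPM in the WT oocytes and 377, 287, 336 and 276 in the matKO oocytes. It fell 4.86-fold in WT (log2 -2.28 ± 0.77, adjusted p 0.013) and 3.36-fold in matKO (-1.75 ± 0.71, adjusted p 0.035), and the matKO fall had a like size without any 1 of the 4 oocytes (-1.81 to -1.66) but was then not called (adjusted p 0.053 to 0.08), nor with sex as a term (-1.61, adjusted p 0.065). The 2-cell medians were 55.4 CPM (31.4 to 101) in WT and 79.5 CPM (25.2 to 191) in matKO, all below the oocytes. In blastocysts Tet3 was at 0 to 15.4 CPM in WT (median 9.49, 2 of 14 libraries at 0) and at 0 to 8.24 in matKO (median 0.561, 7 of 14 at 0), a fall of 7.94-fold in WT (adjusted p 3.1e-06) and 35.4-fold in matKO (adjusted p 1.3e-11). The ExE medians were 9.71 CPM (3.12 to 19.8) and 6.12 CPM (1.96 to 11.6), with no call for the step (0.50, adjusted p 0.47; 1.18, adjusted p 0.094). In matKO it was called with RLE size factors (1.38, adjusted p 0.04), with DESeq2 (1.43, adjusted p 0.042) and within D707T (3.06, adjusted p 8.7e-05).

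Tet1 was almost absent from oocytes and came up with the embryo. The oocytes held 4.95, 3.96 and 4.2 CPM in WT and 7.55, 6.92, 5.93 and 10.5 in matKO, and the 2-cell embryos held medians of 65.3 CPM (36.9 to 132) and 50.4 CPM (19.9 to 139.7), above every oocyte. The rise was 16.2-fold in WT (log2 4.01 ± 0.72, adjusted p 4.5e-06) and 8.14-fold in matKO (3.02 ± 0.59, adjusted p 1.6e-05). Blastocysts ranged from 5.95 to 133 CPM in WT (median 54.7) and from 7.42 to 88.2 in matKO (median 20.3). The step to the blastocyst was not called in WT (-0.28, adjusted p 0.46) and was called in matKO (-0.83, adjusted p 0.019; 0.065 with the TMM reference from an ExE library), and within D707T the WT step was -1.78 (adjusted p 0.001). WT blastocysts under D405T held 73.2 CPM ± 29.5 (SD, n = 10) and those under D707T 20.6 ± 12.7 (SD, n = 4), so the prefix and this step move together. In ExE Tet1 fell 3.6-fold in WT (adjusted p 1.6e-05), to a median of 16.2 CPM (9.74 to 23.9), and 2.25-fold in matKO (adjusted p 0.0093), to 16.3 CPM (6.33 to 22.2). Within D707T the matKO step had the other sign (0.11, adjusted p 0.88).

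Tet2 was a blastocyst transcript. Oocytes held 1.32, 1.14 and 2.2 CPM in WT and 1.33, 1.03, 3.49 and 1.27 in matKO, and 2-cell embryos held medians of 5.02 CPM (0 to 7.3) and 4.45 CPM (0.532 to 15.4). This first rise was not called in WT (1.27 ± 0.74, adjusted p 0.16) and was called in matKO (1.83 ± 0.68, adjusted p 0.02), where it was 1.66 to 1.71 and not called without oocyte 1, 2 or 4 (adjusted p 0.063 to 0.068), nor without the filter on low counts (1.55, adjusted p 0.059). In blastocysts it rose 15-fold in WT (log2 3.91 ± 0.48, adjusted p 4.5e-11) and 6.74-fold in matKO (2.75 ± 0.44, adjusted p 7.8e-08), to medians of 50.9 CPM (27.6 to 103) and 44.4 CPM (18.2 to 66.4), and every blastocyst lay above every library of the other stages. It then fell 14.7-fold in WT (adjusted p 4.1e-10) and 19.7-fold in matKO (adjusted p 1.2e-09), to 3.4 CPM (0.605 to 10.7) and 2.2 CPM (0.758 to 3.18).

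The guardians differed in the stages at which their transcript levels were high. Whether a steady level came from kept or newly made RNA was not tested. Dppa3 stood at 1342, 1642 and 1866 CPM in the WT oocytes and 1609, 1055, 681 and 1046 in the matKO oocytes. It kept a high level in 2-cell embryos (medians 1406 CPM, 755 to 3621, in WT and 1831 CPM, 584 to 2851, in matKO) and in blastocysts (1284 CPM, 869 to 2376, and 1987 CPM, 1218 to 2792). Neither of the first 2 steps was called in either genotype (-0.03 and 0.67 from oocytes, adjusted p 0.99 and 0.31; -0.13 and 0.19 from 2-cell embryos, adjusted p 0.78 and 0.64). In ExE it was at 0 to 2.53 CPM in WT, with 4 of 10 libraries at 0, and at 0.0963 to 16.5 CPM in matKO. The fall was -11.38 ± 0.64 on the log2 scale in WT (adjusted p 6.4e-26) and -9.01 ± 0.64 in matKO (adjusted p 1.9e-20). Zfp57 fell at every step. It stood at 599.6, 554 and 499.8 CPM in the WT oocytes and 756, 617, 513 and 797 in the matKO oocytes. Its medians were 92.4 CPM (58.2 to 139.7) in WT and 131 CPM (67.5 to 213) in matKO 2-cell embryos, 26.1 (7.95 to 48.3) and 18.7 (3.98 to 29.4) in blastocysts, and 1.27 (0.292 to 3.63) and 2.89 (1.13 to 5.04) in ExE, and neighbouring stages did not overlap, apart from matKO blastocysts and ExE. The falls were 5.65-fold, 3.9-fold and 16.5-fold in WT (adjusted p 7.5e-08, 7.8e-10 and 1e-17) and 5.28-fold, 6.98-fold and 6.42-fold in matKO (adjusted p 1.2e-08, 2.2e-15 and 3.8e-10).

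As shares of the summed level per kb within a library, Tet3 made up 97.8% ± 0.285 of the 3 oxidases in WT oocytes (SD, n = 3) and Tet1 1.67%. In WT 2-cell embryos Tet1 made up 55.3% ± 11.8 and Tet3 42.2% ± 10.6 (SD, n = 11), and Tet1 was the highest in 7 of 11. In WT blastocysts Tet1 and Tet2 had equal shares within their spread, 47.3% ± 15.6 and 47.7% ± 17.1 (SD, n = 14), each highest in 7 libraries. In WT ExE Tet1 made up 57% ± 14.2 and Tet3 32.2% ± 11 (SD, n = 10). Among the 4 Dnmt genes, Dnmt1 made up 80.8% ± 1.17 in WT oocytes and 44.2% ± 4.56 in 2-cell embryos, Dnmt3l 68.2% ± 8.18 in blastocysts, where it was the highest in 14 of 14, and Dnmt3b 66.2% ± 10.7 in ExE, where it was the highest in 10 of 10. In matKO the same Dnmt gene had the highest mean share as in WT at each stage except for 2-cell embryos, where Dnmt3l (42.8% ± 8.77) was the highest in 7 of 12 and Dnmt1 (38.5% ± 9.35) in 5, and in matKO 2-cell embryos Tet3 (53.5% ± 23.9) was the highest oxidase in 7 of 12. These shares have no test.

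**Figure D3:**
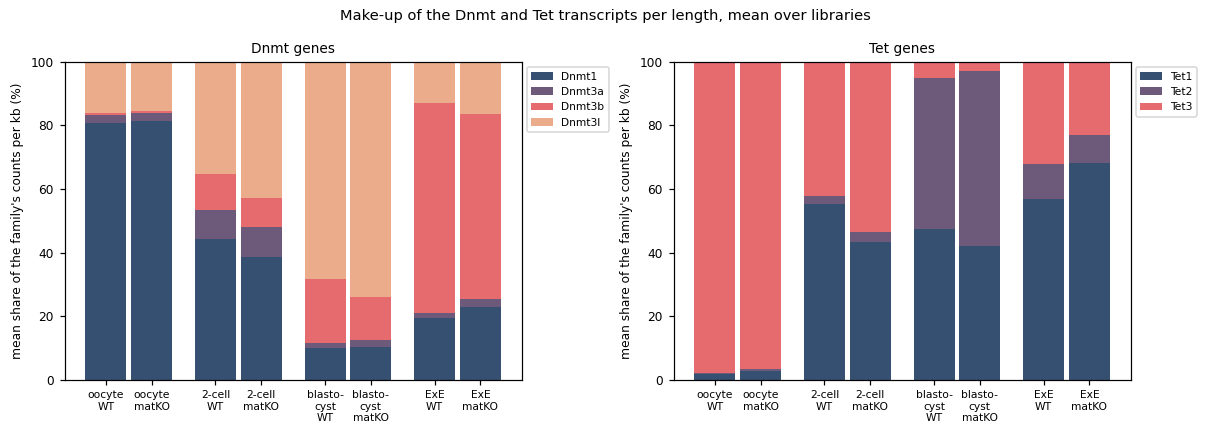
Mean share of each gene in the summed CPM per kb of its family, in percent, by stage and genotype, for Tet1 to Tet3 and for Dnmt1, Dnmt3a, Dnmt3b and Dnmt3l. The leading oxidase passed from Tet3 in oocytes (97.8% in WT) to Tet1 with Tet3, then to Tet1 with Tet2, and the leading Dnmt gene from Dnmt1 to Dnmt3l to Dnmt3b.

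The comparison of genotypes asked whether the missing maternal Ezhip went with other levels of these genes. In oocytes none of the 10 was called, against 0.0202% of all 14838 genes tested (3 genes; 36 with DESeq2; among the members 1, Dppa3, had an unadjusted p under 0.05, and DESeq2 also called none of them). The 95% intervals of the log2 difference, matKO minus WT, ran from -0.46 to 0.50 for Dnmt1, from -0.54 to 0.27 for Dnmt3a and from -0.50 to 0.40 for Dnmt3l. Tet1 was the gene whose groups did not overlap: all 4 matKO oocytes (5.93 to 10.5 CPM) lay above all 3 WT oocytes (3.96 to 4.95), where 7.3% of all genes tested did not overlap in either direction, and its difference of 0.83 ± 0.39 was not called (edgeR, adjusted p 0.8). Dppa3 was lower than every WT oocyte in 3 of 4 matKO oocytes and was not called (-0.56 ± 0.25, adjusted p 0.79).

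In 2-cell embryos none of the 10 was called (0.731% of all genes were; among the members 1, Tet3, had an unadjusted p under 0.05, and DESeq2 called none, with an adjusted p of 0.13 for Tet3). Tet3 had the smallest adjusted p, at 95.1 CPM ± 57.1 (SD, n = 12) in matKO and 59.6 ± 20.3 (SD, n = 11) in WT (0.72 ± 0.30, adjusted p 0.27), followed by Zfp57 at 127 ± 44.4 and 97.4 ± 26.3 (0.42 ± 0.21, adjusted p 0.36). Both rested on the libraries numbered 42 to 48. Tet3 stood at 132 CPM ± 44.7 in these (67.1 to 191, n = 7) and at 43 ± 12 in those numbered 37 to 41 (25.2 to 56.2, n = 5), without overlap. Zfp57 stood at 156 ± 31.3 (130.3 to 213) and 86.4 ± 19.5 (67.5 to 117), also without overlap. The share of all genes without overlap between these sets was not counted, so the lack of overlap does not set Tet3 and Zfp57 apart. The 5 libraries numbered 37 to 41 lay within the range of WT for Zfp57 (58.2 to 139.7), and for Tet3 (31.4 to 101) all but 1 did, which lay below it.

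Without the libraries numbered 37 to 41, Tet3 was called higher (1.20, adjusted p 0.0004), Zfp57 higher (0.71, adjusted p 0.0091) and Tet1 lower (-0.86, adjusted p 0.044), in a comparison in which 22.5% of all genes were called. Without those numbered 42 to 48, no member was called, and Tet3 (-0.48), Zfp57 (-0.18) and Tet1 (0.45) had the other sign. The libraries numbered 42 to 48 and 37 to 41 were separated because levels in these same data set them apart. The calls and adjusted p-values of these fits therefore describe the split and do not hold as tests of genotype. The same holds for the lack of overlap between the sets. Tet1 stood at 38.2 CPM ± 20.8 (n = 7) in the first and 97.6 ± 37.5 (n = 5) in the second set, Uhrf1 at 22.1 ± 7.25 and 7.53 ± 2.46, and Dppa3 at 1404 ± 460 and 2234 ± 355. The libraries numbered 42 to 48 were shallower, with a median total of 1.9 M against 6.02 M counts. They held more of the 2-cell markers (9 genes, such as Zscan4c and Zfp352; summed level 628 to 1614 CPM against 222 to 399, and 88.2 to 501 in WT) and of the oocyte markers (9 genes; 1969 to 2851 CPM against 1043 to 1942, and 944 to 2272 in WT). The part of depth and of the stage markers in these differences was not tested.

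**Figure D4:**
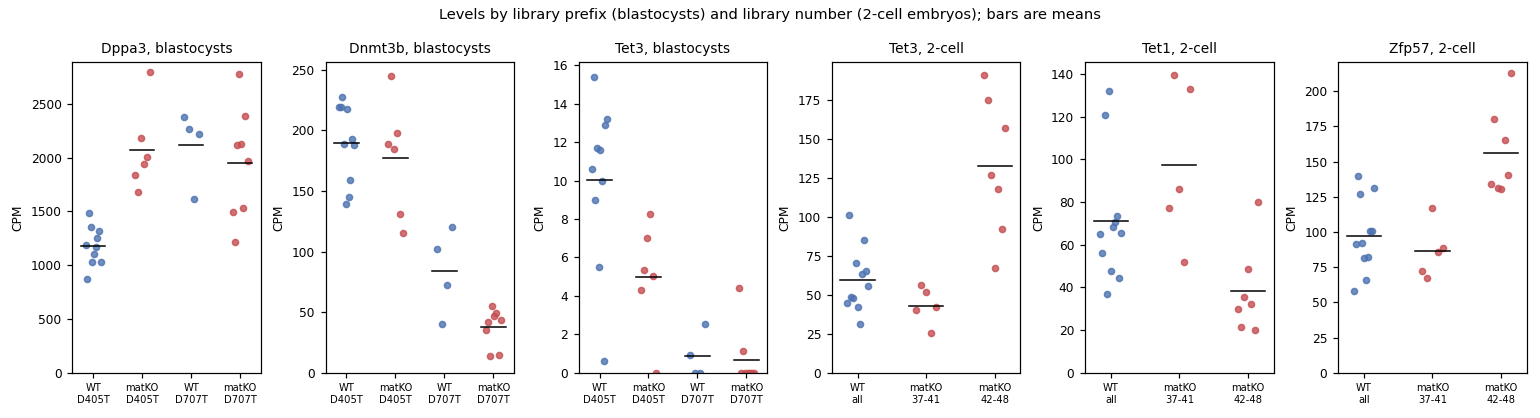
Levels in CPM of Dppa3, Dnmt3b and Tet3 in blastocysts by library prefix and of Tet3, Tet1 and Zfp57 in 2-cell embryos by library number; each point is 1 library and the bar is the mean of its set. WT blastocysts under D405T were the lowest set for Dppa3 (869 to 1484 CPM), both D707T sets were low for Dnmt3b and Tet3, and matKO 2-cell embryos numbered 42 to 48 lay above those numbered 37 to 41 for Tet3 and Zfp57.

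In blastocysts 1 of the 10 genes was called, against 6.3% of all 13445 genes. Dppa3 was higher in matKO, at 2003 CPM ± 453 (1218 to 2792) against 1447 ± 494 (869 to 2376; SD, n = 14 each), a rise of 1.35-fold (log2 0.44 ± 0.13, edgeR's adjusted p 0.042). Of the matKO blastocysts, 13 of 14 lay above the WT mean and the groups overlapped. The 2 prefixes differed. Within D405T the 6 matKO (2071 CPM ± 391, 1677 to 2792) lay above all 10 WT (1179 ± 181, 869 to 1484), which 1.41% of all genes did in either direction, and the difference was 0.79 (adjusted p 0.0017, with 5.18% of all genes called). Within D707T the 8 matKO (1952 ± 514, 1218 to 2776) and 4 WT (2119 ± 341, 1617 to 2376) overlapped and the difference was -0.07 (adjusted p 0.92). The call was also lost in 18 of 28 refits that left out 1 library, where the difference was 0.36 to 0.44 with an adjusted p of 0.053 to 0.12. These left out WT female 1, 2, 4 or 6, WT male 1, 2, 3, 5, 7 or 8, matKO female 1, 2, 3 or 7, or matKO male 1, 2, 3 or 6. The 4 WT libraries under D707T summed to 2410.3 to 4836 CPM over the 8 trophectoderm markers, against 4832 to 8129 in those under D405T, and the ranges were apart in matKO (1159.9 to 2473 under D707T, 3277 to 6078 under D405T); the part of this in the level of Dppa3 was not tested.

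None of the other 9 genes was called in blastocysts. Dnmt3b stood in matKO at 97.4 CPM ± 78.3 against 159 ± 59.1, and missed the threshold (-0.54 ± 0.20, adjusted p 0.098). The prefixes again differed: D405T held 189.8 ± 32.6 in WT and 177 ± 47.3 in matKO (-0.13, adjusted p 0.67), and D707T held 83.6 ± 35 (40.3 to 120.2) and 37.6 ± 15.6 (13.5 to 55.3; -1.10, adjusted p 0.18). Tet3 was at 0 in 6 of 8 matKO and 2 of 4 WT libraries under D707T, and in 1 of 6 matKO and 0 of 10 WT libraries under D405T, and its difference was -0.98 ± 0.79 (95% interval -2.59 to 0.62, adjusted p 0.55). The 95% intervals of the log2 difference were -0.60 to 0.08 for Dnmt1, -0.67 to 0.08 for Tet2, -0.77 to 0.16 for Tet1, -0.41 to 0.32 for Dnmt3a and -0.31 to 0.28 for Dnmt3l.

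In ExE 1 of the 10 genes was called, against 24.9% of all 14156 genes. Dppa3 was higher in matKO, at a level near the limit of detection. The WT libraries held 0, 0.365 and 2.53 CPM (lowest, median and highest, n = 10; 0 to 20 counts) and the matKO libraries 0.0963, 1.19 and 16.5 CPM (n = 8; 1 to 76 counts). The difference was 3.33 ± 1.02 on the log2 scale (edgeR's adjusted p 0.021), 5 of 8 matKO libraries lay above the WT mean, 3 above every WT library, and the groups overlapped. It rested on 2 libraries, female 5 (16.5 CPM) and male 3 (11.1 CPM). Without female 5 it was 2.19 (adjusted p 0.1) and without male 3 it was 2.95 (adjusted p 0.1). Female 5 also held 10 CPM of the 2-cell markers, against at most 0.567 in every other ExE library. With the level of decidua markers as a covariate the difference was 2.99 (adjusted p 0.14). The 15 decidua and uterine stroma markers summed to 44.6 to 224 CPM in WT and 74.8 to 1336 in matKO, with 7 of 13 tested higher and 0 lower, 9 oocyte markers to 0.887 to 10.6 and 4.72 to 26.3, and 7 blood markers to 3.04 to 14.1 and 10.3 to 171. The part of other cells in these results was not tested.

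Of the other 9 genes none was called in ExE. Tet3 was at 10.6 CPM ± 4.85 in WT (n = 10) and 5.96 ± 3.22 in matKO (n = 8), below the WT mean in 7 of 8 (-0.77 ± 0.36, adjusted p 0.12). Tet2 was below the WT mean in 8 of 8 (-0.84 ± 0.55, adjusted p 0.28). Zfp57 was at 1.5 ± 1.13 and 2.87 ± 1.2, above the WT mean in 7 of 8 (0.96 ± 0.55, adjusted p 0.2). Dnmt3b had nearly equal means, 683 ± 217 and 730 CPM ± 627, but in matKO 4 of 8 libraries lay below every WT library and 3 above every one (0.24 ± 0.44, adjusted p 0.72).

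**Figure D5:**
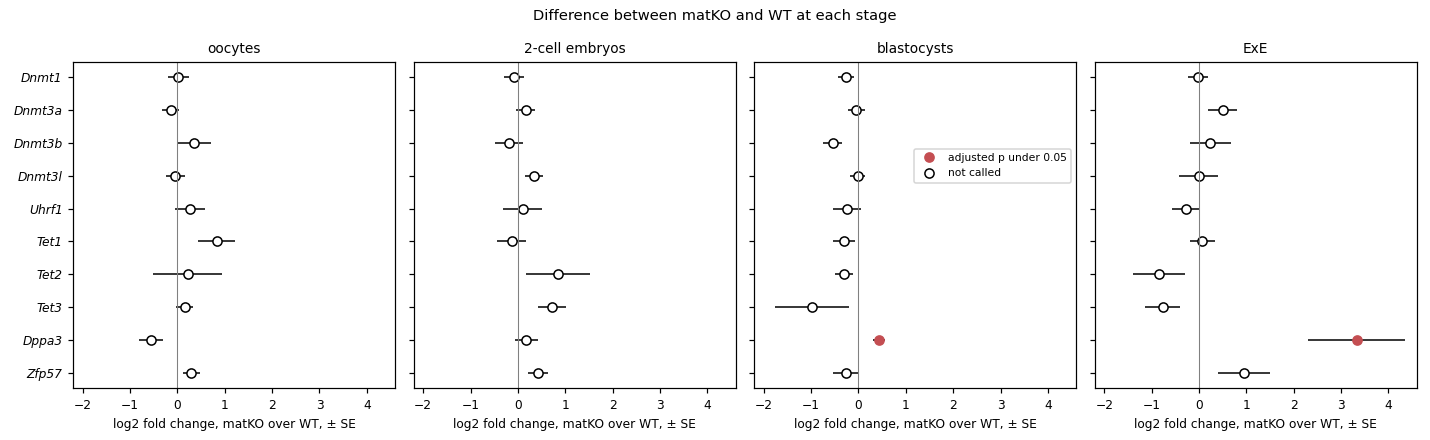
Difference between matKO and WT for each gene at each stage, as log2 fold change ± SE from the fit of that stage; red points passed an adjusted p of 0.05. The 2 red points are Dppa3 in blastocysts (0.44) and in ExE (3.33), and wide bars belong to genes near the limit of detection, such as Tet3 in blastocysts and Dppa3 in ExE.

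Within 1 sex none of the 10 genes was called at any stage. All genes called made up 0.0207% in female and 0.875% in male 2-cell embryos, 0.208% and 1.52% in blastocysts, and 9.69% and 5.28% in ExE. For Dppa3 the difference in blastocysts was 0.38 ± 0.20 in females (adjusted p 0.56) and 0.49 ± 0.18 in males (adjusted p 0.17), and in ExE it was 4.06 ± 1.31 in females (adjusted p 0.053) and 2.16 ± 1.52 in males (adjusted p 0.42). The test of the sex-by-genotype term called none of the members, against 0% of all genes in 2-cell embryos and in ExE (930 and 513 genes had an unadjusted p under 0.05, and edgeR's newer quasi-likelihood fit also called 0) and 0.00744% in blastocysts. Between females and males none of the 10 genes was called by edgeR's test, where 0.372% (2-cell embryos), 0.409% (blastocysts) and 0.0353% (ExE) of all genes were; the smallest unadjusted p was that of Tet1 in ExE (-0.54 ± 0.26, 0.048).

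Whether a step between stages differed between the genotypes was tested in the joint fit. None of the 10 genes differed from oocyte to 2-cell embryo (0.0573% of all genes did) or from 2-cell embryo to blastocyst (9.42% did). Tet3 came nearest at the second step (-2.16 ± 0.77, adjusted p 0.059), and it was called with RLE size factors (-2.36, adjusted p 0.028), with the TMM reference from a blastocyst (-2.16, adjusted p 0.049) and with edgeR's newer quasi-likelihood fit (-2.0, adjusted p 0.015). From blastocyst to ExE, Dppa3 (2.36 ± 0.63, adjusted p 0.01) and Zfp57 (1.36 ± 0.42, adjusted p 0.029) fell less in matKO, among 9.05% of all genes called. Neither was called with edgeR's newer quasi-likelihood fit (1.98, adjusted p 0.056; 1.30, adjusted p 0.07). These steps join libraries of different prefixes, and at the last step the prefix changes with the genotype, so their effects cannot be told apart.

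Other genes of the pathway were taken from 5 lists. In oocytes and 2-cell embryos no gene of these lists was called for genotype, where 0.0202% and 0.731% of all genes were. In blastocysts 6.3% of all genes were called. Of 10 tested genes listed as imprint guardians other than the members, 2 were higher in matKO. Dppa4 stood at 186 CPM ± 45.1 in WT and 263 ± 23.4 in matKO (SD, n = 14 each), a difference of 0.45 ± 0.11 (edgeR's adjusted p 0.012). Dppa2 stood at 194 ± 67 and 304 ± 57.3, a difference of 0.62 ± 0.16 (edgeR's adjusted p 0.017). Dppa2 and Dppa4 form a complex at CpG-rich promoters, and a part of theirs in guarding imprints was not tested. The means of both genes pool the library prefixes, which were a term in the test. Their levels within each prefix are not given here. The summed trophectoderm markers lay lower in matKO under both prefixes (3277 to 6078 against 4832 to 8129 CPM under D405T, 1159.9 to 2473 against 2410.3 to 4836 under D707T), with overlap, and their part in these differences was not tested. The median of that list was 0.36, against -0.03 over all genes. Of the 9 genes tested that were listed as CpG readers, Zbtb33 was lower (-2.78 ± 0.86, adjusted p 0.049) at 1.69 ± 1.64 and 0.27 ± 0.639 CPM. Of the 17 genes of the methyl donor cycle, Ahcyl1 was lower (-0.49 ± 0.15, adjusted p 0.049). None of 12 partners of the Dnmt enzymes and none of 14 genes of active demethylation was called.

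In ExE the calls of these lists stood beside the 24.9% of all genes called. Of 12 partners of the Dnmt enzymes 2 were lower and 0 higher: Kdm1a (-0.87 ± 0.25, adjusted p 0.015) and Kdm1b (-0.87 ± 0.29, adjusted p 0.029), which remove methyl groups from histone H3 lysine 4. Of 15 genes of active demethylation and base excision repair 3 were higher and 3 lower, with a median of -0.01. Gadd45g went from 11.8 CPM ± 8.25 to 74.1 ± 51.8 (2.73 ± 0.38, adjusted p 3.1e-05). Gadd45b went from 9.03 ± 4.98 to 29.7 ± 15.9 (1.82 ± 0.33, adjusted p 0.00038). Apex1, the abasic site endonuclease, went from 0.864 ± 1.5 to 13.9 ± 9.12 (4.26 ± 0.84, adjusted p 0.0012). The glycosylase Neil2 fell near the limit of detection, from 2.73 ± 2.08 to 0.468 ± 0.433 (-2.40 ± 0.72, adjusted p 0.018). Of 12 genes listed as CpG readers 2 were higher, Mbd3 (0.86 ± 0.21, adjusted p 0.0045) and Mbd2 (0.64 ± 0.23, adjusted p 0.042). Of 10 other genes listed as imprint guardians 2 were lower, Zfp202 (-1.20 ± 0.37, adjusted p 0.021) and Arid4b (-0.85 ± 0.29, adjusted p 0.034). Of 16 genes of the methyl donor cycle 1 was higher, Shmt2 (0.71 ± 0.25, adjusted p 0.038), and 4 were lower, among them Shmt1 (-0.54 ± 0.17) and Ahcyl1 (-0.55 ± 0.19). Values in ExE follow WT before matKO (SD, n = 10 and 8).

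Between stages the lists moved as follows. In the WT step from oocyte to 2-cell embryo 7 of 11 genes listed as imprint guardians other than the members rose and 1 fell. Of all genes 22.1% rose and 21.7% fell, and the median was 1.36 for the list and 0.00 over all genes. Dppa4 (5.16 ± 0.51), Zfp42 (5.37 ± 0.68) and Zfp568 (2.41 ± 0.44) rose and Nlrp2, a subunit of a maternal complex, fell (-4.46 ± 0.77). Of 16 genes of active demethylation 5 rose and 6 fell, and of 12 genes listed as CpG readers 1 rose and 5 fell. From 2-cell embryo to blastocyst, where 28.2% of all genes rose and 41.8% fell in WT, 9 of 16 demethylation genes rose and 5 fell, with a median of 1.08 against -0.50 over all genes, led by Tdg, the glycosylase that removes oxidised methylcytosine (7.06 ± 0.57, adjusted p 1.9e-17). Of 13 partners 4 rose and 7 fell; Lig1, the replicative ligase, rose (4.36 ± 0.33) and Kdm1b, which prepares oocyte chromatin for de novo methylation, fell (-2.66 ± 0.37). From blastocyst to ExE 5 partners rose and 2 fell in WT, against 31.8% and 23.1% of all genes, among them Uhrf2 (4.30 ± 0.55), the paralogue of Uhrf1, and Cdca7 (2.13 ± 0.28), which rose. In matKO 3 of the 13 rose and 4 fell, against 30.3% and 18.7% of all genes. The matKO median was 0.14 for the list and 0.14 over all genes. The partners include Dnmt3c, itself a Dnmt gene.

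The genes most like each member in pattern were named by Pearson's r of log2 CPM over the 76 libraries, among 15707 genes, as a description: the libraries share stages, prefixes and scaling. Dppa3 was most like Aqp9 (0.978), Nr5a2 (0.96) and Adtrp (0.949). Zfp57 was most like Ybx2 (0.944), Padi6 (0.937) and Syne2 (0.924), Tet3 most like Cnot6l (0.906), Shroom4 (0.902) and Fbxo18 (0.901), and Dnmt1 most like Fam162b (0.862), Atp8a2 (0.86) and Gpr142 (0.831). Dnmt3b was most like Prdx6b (0.924), Sowahb (0.918) and Vdac1 (0.918), Dnmt3l most like Fbp2 (0.895), Saxo1 (0.871) and Ostf1 (0.868), and Dnmt3a most like Anapc16 (0.742), Tdrd12 (0.726) and Vwa2 (0.719). Tet2 was most like Elf3 (0.873), Ppp6r3 (0.871) and Ly6f (0.871), Tet1 most like Apaf1 (0.872) and Rad21 (0.847), and Uhrf1 most like Aven (0.842), Ncaph (0.821) and Pgpep1 (0.816). Among the members themselves r was highest between Dppa3 and Zfp57 (0.759), and between Dnmt3l and Tet2 (0.73), and lowest between Dnmt3b and Zfp57 (-0.834).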

How the data were processed

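The 10 genes and the pathway lists were chosen with earlier results of these data known. The authors deposited 4 tables of raw counts per gene, made with Trim Galore, STAR, SAMtools and featureCounts on mm10, per the submitters' processing notes. The sources used here name no versions, strand setting, annotation release or rule for multi-mapping reads. Per the labels' protocols, libraries were made with the Swift Accel-NGS 2S kit from polyadenylated RNA. Of the count columns, 8 match no sample and were not used. Among 183 pairs of libraries of the same group none agreed within sampling noise (lowest chi-square per degree of freedom 9.4).

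Counts were tested with edgeR 4.0.16 (R 4.3.3; estimateDisp, glmQLFit and glmQLFTest, robust; limma 3.58.1), after filterByExpr with a minimum count of 10, at a Benjamini-Hochberg adjusted p of 0.05. This older fit was chosen over edgeR's newer one (legacy=FALSE) with earlier results known. Each stage was fitted on its own, with sex as a term (not in oocytes) and the library prefix in blastocysts; steps between stages came from 1 fit of the 76 libraries. DESeq2 1.42.0, RLE size factors, no filter, prefix sets, marker covariates, the replicate block and leaving out single libraries were alternatives. The standard error is the log2 fold change divided by the square root of F, and 95% intervals use the t quantile on the degrees of freedom of that test. The tests were tried on simulated counts. Tables were joined with Python 3.11.15 and pandas 2.3.3.

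Named were all 10 members, from each list up to 4 called genes per comparison with the smallest p, Ezhip, and per member the 3 genes with a standard symbol and the highest r of log2 CPM (prior count 2). Some genes that this rule names are not reported here. Same-numbered samples of the 2 genotypes had deviations that correlated from -0.504 to 0.707; in no stage and sex were all pairs over 0.1, though in male blastocysts 6 of 7 were (0.0889 to 0.61), so numbers were not treated as pairs.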

Additional observations from a re-analysis of the deposited data

Results flagged for a closer look

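Among 120 groups of 4 to 8 libraries (the 10 genes by stage, genotype and sex), 10 had 1 library far from the others. Chance gives about 1 in 20. In 2-cell embryos, WT female 1 was low for Dnmt3a (42.3 CPM, next 65.8) and high for Dnmt3b (32.1, next 20.1), WT male 1 was low for Dnmt3a (33, next 62.2) and high for Dppa3 (3621, next 1793), and matKO female 5 was high for Dnmt3b (52.2, next 16.4). In ExE, WT female 1 was high for Dnmt3l (269, next 111) and for Tet3 (19.8, next 9.81), WT female 4 was high for Tet1 (19.6, next 12.8), and matKO female 5 was high for Dppa3 (16.5, next 2.88). In oocytes, matKO 3 was high for Tet2 (3.49, next 1.33).

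The step from blastocyst to ExE differed between the genotypes for Dppa3, by 2.36 on the log2 scale (edgeR's adjusted p 0.01), and for Zfp57, by 1.36 (adjusted p 0.029). Both genes fell less in matKO, and the library prefix differed with genotype in ExE.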

How the results depend on the processing

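Genotype differences of the 10 genes kept direction and call in 272 values under other settings (22 turned sign, 3 lost and 3 gained a call) and in 702 without 1 library (38 turned, 20 lost a call). Steps did so in 491 values (6 turned, 17 lost and 16 gained a call), and the first step without 1 oocyte in 56 (1 turned, 13 lost a call). The cause of a change was not tested. The genes called for genotype numbered 106 in 2-cell embryos, against 693 with DESeq2, 687 with the granulosa marker level as a covariate, 454 with edgeR's newer fit, 3728 without matKO numbers 37 to 41, 19 without 42 to 48 and 52 to 256 without 1 library. They numbered 847 in blastocysts (DESeq2 1336, newer fit 1796, D707T only 140, 603 to 915 without 1 library), 3520 in ExE (1548 with the decidua marker level as a covariate, 2932 to 3698 without 1 library) and 3 in oocytes (DESeq2 36, 1 to 4 without 1 library). The newer fit called 88, 100 and 8 genes between the sexes in 2-cell embryos, blastocysts and ExE, in place of 54, 55 and 5.

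With the replicate number as a block, a number that was not taken to pair the samples, the counts were 14 in 2-cell embryos, 427 in blastocysts, 2519 in ExE and 1 in oocytes. Dppa3 was then not called (blastocysts 0.39, adjusted p 0.22; ExE 2.97, adjusted p 0.19), and the sign turned for Dnmt3b (-0.29) and Dnmt3l (0.21) in ExE, Dnmt3l (0.00) and Uhrf1 (0.01) in blastocysts, and Dnmt1 (-0.15) and Uhrf1 (-0.01) in oocytes. Libraries correlated best with their own number in 1 of 3 pairs of oocytes, 2 of 5 female and 1 of 6 male 2-cell embryos, 2 of 6 female and 1 of 7 male blastocysts, and 0 of 5 and 0 of 3 in ExE.

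Other signs that turned belong to uncalled values, apart from Dppa3 in blastocysts (D707T -0.07) and Tet1 from blastocyst to ExE in matKO (D707T 0.11). In 2-cell embryos they were Dnmt1 0.25, Uhrf1 -0.97, Tet1 0.45, Tet2 -0.33, Tet3 -0.48 and Zfp57 -0.18 without 42 to 48, Dnmt3a -0.07 and Dppa3 -0.21 without 37 to 41, and Dppa3 -0.43 with the granulosa covariate. In blastocysts they were Dnmt3a 0.24 without the prefix term and 0.19 in D707T, and Dnmt3l 0.11 in D405T. In ExE they were Dnmt1 0.10 with the decidua covariate and Dnmt3l 0.02 with DESeq2 and RLE. Steps of Dppa3 from 2-cell embryo to blastocyst turned to 0.06 (TMM reference from ExE) and 0.43 (D707T) in WT, and to -0.06 (DESeq2, RLE) and -0.20 (TMM reference from oocytes) in matKO. Differences of steps turned for Dnmt1 (0.01) and Uhrf1 (0.04) with RLE from oocyte to 2-cell embryo, for Dnmt3a (-0.01, newer fit or TMM reference from oocytes) to blastocyst, and for Dnmt3l (0.03 with RLE or TMM reference from ExE, 0.01 from blastocysts) to ExE. With the newer fit, Tet3 between the sexes (-0.03) and Dnmt3l in the sex-by-genotype term (-0.01) turned in 2-cell embryos.

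Without 1 library, differences crossed 0 for Dnmt1 in 2-cell embryos (-0.15 to 0.00), ExE (-0.13 to 0.09) and oocytes (-0.15 to 0.14), Dnmt3a in blastocysts (-0.12 to 0.02), Dnmt3b in ExE (-0.15 to 0.40), Dnmt3l in ExE (-0.13 to 0.33), blastocysts (-0.06 to 0.04) and oocytes (-0.17 to 0.09), Tet1 in ExE (-0.06 to 0.17), Tet2 in oocytes (-0.37 to 0.55), Uhrf1 in 2-cell embryos (-0.04 to 0.28) and oocytes (-0.02 to 0.55), and the first step of Dppa3 in WT (-0.15 to 0.08). Depth limits Tet3 in blastocysts and Dppa3, Tet2 and Zfp57 in ExE, where 3 counts correspond to up to 0.853 and 1.08 CPM.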
